A study of Mus musculus with 13 samples.

Results

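B cell genes and genes of the plasma cells that B cells become were followed in RNA from mouse adrenal glands. They were taken by symbol from the deposited tables: Cd79a, Cd79b, Ms4a1, Igj, Mzb1, Pou2af1 and Blnk, which are 7 of the 14078 genes listed for every library. All 7 were found, each as 1 RefSeq transcript. The glands came from C57BL/6 mice in which TAM (tamoxifen) induces loss of Star, the gene of the protein that moves cholesterol into mitochondria for steroid synthesis. The groups were glands from before TAM (5 libraries), glands from 24 h after it (4 libraries) and glands from 8 weeks after it (4 libraries). Strain and tissue were the same in all 3 groups. The labels used here name neither the Cre line and its promoter nor the age of the mice, and they do not say whether each library came from a separate animal. The p-values below therefore measure the spread between these libraries, which may be technical. No mice given TAM without the deletion were analysed here, so effects of Star loss, of TAM itself and of elapsed time cannot be told apart.

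B cells carry an antibody on their surface as the antigen receptor. The antibody itself has almost no tail inside the cell, and the signal is passed on by a pair of partner chains, Cd79a and Cd79b, to kinases such as Syk and Btk. Blnk is the adaptor that joins these kinases to their downstream enzymes, and macrophages use it too. Ms4a1 is the surface protein CD20 of B cells, lost as they become plasma cells. Pou2af1 is a coactivator that binds the octamer factors Pou2f1 and Pou2f2 on octamer DNA in antibody genes. Plasma cells release antibody, and Igj (also called Jchain) is the joining chain that links antibody units into polymers of IgM and IgA. Mzb1 is a chaperone partner of the endoplasmic reticulum in marginal zone B cells and plasma cells. The adrenal gland is built of a steroid-making cortex, a catecholamine-making medulla and a capsule, and B cells are a small part of it.

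The DNA before the starts of these genes is shown because the octamer that Pou2af1 reads, and the AGGAAGT letters that factors of the Ets family such as Spi1 and Spib can bind, belong to B cell gene control. Promoter sequences from RefSeq (GRCm38.p6) were at hand for 4 of the 7 genes. Each line below gives 250 bases before the start, 5′ to 3′ on the gene's strand, with letters of a searched motif in capitals. Cd79a is at chr7:24897247-24897496, plus strand. Pou2af1 is at chr9:51213440-51213689, plus strand. Igj is at chr5:88527898-88528147, minus strand.
Cd79a: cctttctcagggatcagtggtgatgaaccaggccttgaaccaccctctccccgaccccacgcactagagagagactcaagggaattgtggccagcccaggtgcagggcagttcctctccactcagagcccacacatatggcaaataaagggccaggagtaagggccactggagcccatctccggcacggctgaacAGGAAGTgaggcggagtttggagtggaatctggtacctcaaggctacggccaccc
Pou2af1: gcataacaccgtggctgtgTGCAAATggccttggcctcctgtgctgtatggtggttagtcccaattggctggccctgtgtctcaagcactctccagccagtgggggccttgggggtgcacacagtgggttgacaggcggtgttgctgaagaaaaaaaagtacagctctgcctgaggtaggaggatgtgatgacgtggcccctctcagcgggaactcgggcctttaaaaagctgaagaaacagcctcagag
Igj: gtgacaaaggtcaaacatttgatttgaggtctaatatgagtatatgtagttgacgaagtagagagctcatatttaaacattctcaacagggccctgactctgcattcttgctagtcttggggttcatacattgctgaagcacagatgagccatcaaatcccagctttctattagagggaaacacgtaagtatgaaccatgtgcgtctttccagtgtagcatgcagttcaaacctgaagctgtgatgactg
For Blnk the listed transcript starts upstream of the RefSeq window, at 40994535, so only a site of 28 bases is shown. It is at chr19:40994334-40994361 on the minus strand, 174 bases after that listed start. Whether it lies in an exon was not examined. Positions given below count from the RefSeq start, so by the listed transcript the Blnk site lies inside the gene.
Blnk: actggaagggATTTGCATgcccaataag
The search covered both strands for the octamer ATGCAAAT, for TGCAAAT, which is the octamer without its first base and overlaps it, for AGGAAGT, and for CCCNNGGG, a core that the B cell factor Ebf1 can bind. Windows of 300 bases were searched, from 250 before to 50 after the start. Blnk held the octamer on the opposite strand from −130, letters that 1.74% of 32851 RefSeq promoters held. Pou2af1 held TGCAAAT from −231, held by 4.02% of the promoters. Cd79a held AGGAAGT from −55 and Blnk from −202, held by 9.35%. CCCNNGGG, in 13.7% of promoters, was in none of the 4 windows, and Igj held none of the 4 motifs. The motifs were chosen with these sequences in view, and a match describes letters only.

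In the mm10 coordinates of the tables, Cd79a spans chromosome 7 from 24897511 to 24902197 (plus strand), Cd79b chromosome 11 from 106311341 to 106314529 (minus) and Blnk chromosome 19 from 40928927 to 40994535 (minus). Ms4a1 spans chromosome 19 from 11250603 to 11266151 (minus), Pou2af1 chromosome 9 from 51213690 to 51240079 (plus), Mzb1 chromosome 18 from 35647265 to 35649367 (minus) and Igj chromosome 5 from 88519809 to 88527897 (minus). All values are for whole transcripts, so coding exons and UTRs are counted together.

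Levels are FPKM, the deposited read values scaled by transcript length and library total. Listed reads ran from 17331673 to 27309429 per library. Star stood between 3207 and 4239 FPKM before TAM, between 17.4 and 626.1 at 24 h and between 85.9 and 201.6 at 8 weeks, so every later library lay below every before library. Genes of the steroid cortex defined the tissue, with 10 of 10 listed genes measured and a summed level of 22450 to 27130 FPKM before TAM. Some libraries stood apart in markers of other tissue: before replicate 1 had a mean log2 CPM (counts scaled to the library total) of fat cell genes of −3.97 relative to the before mean, and 24 h replicate 3 one of −5.66 for fat cells and −5.93 for the cortex. 8-week replicate 1 stood apart in exocrine gland and neutrophil genes, given below beside the results it touches.

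**Figure D1:**
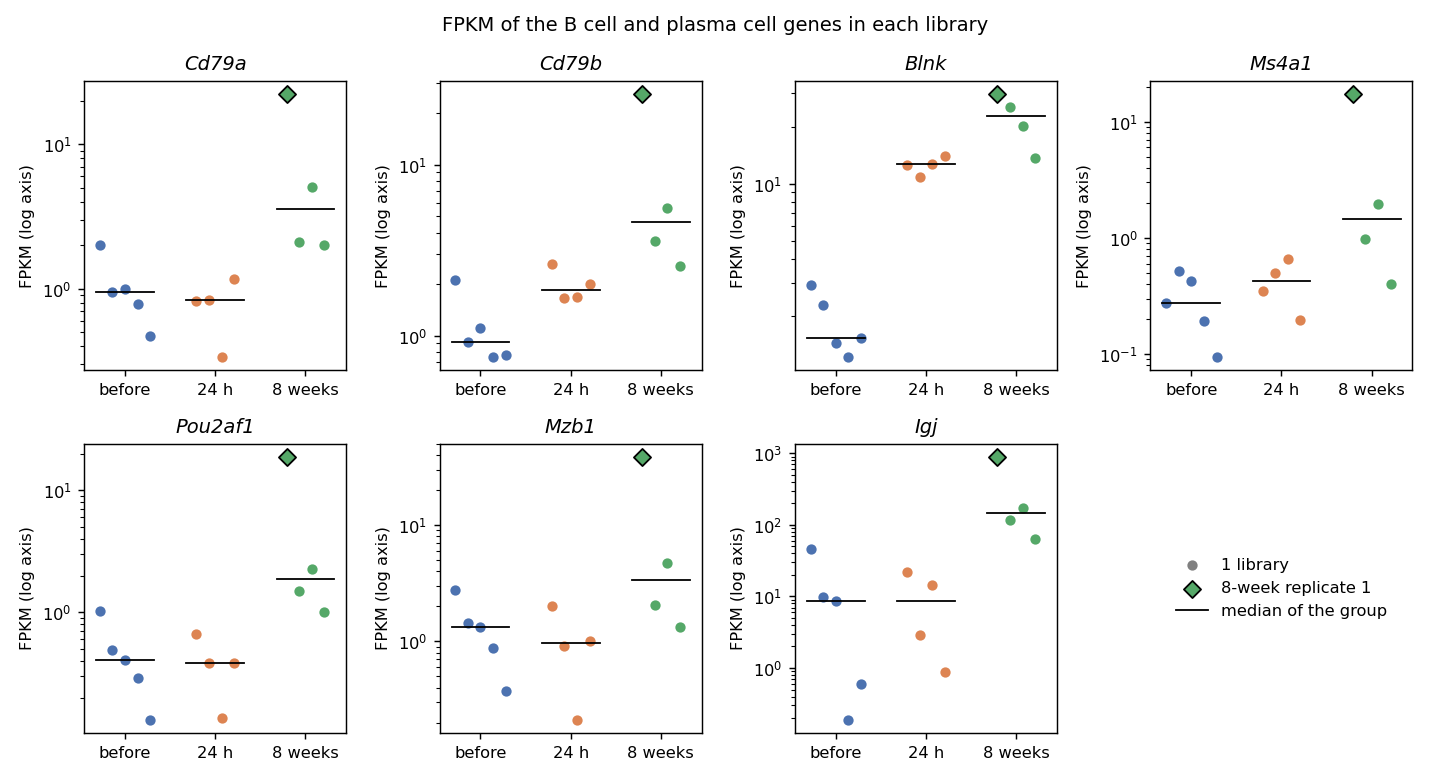
Level of each of the 7 genes in the 13 libraries (FPKM, log axis), by group; each point is 1 library, the diamond is 8-week replicate 1 and the horizontal bar is the group median. 8-week replicate 1 is the highest point of every panel, and for Blnk alone both later groups sit wholly above the before libraries.

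At 8 weeks after TAM, all 7 genes were higher than before it, by log2 fold changes from 3.04 for Cd79a to 4.71 for Igj. All 7 passed an adjusted p of 0.05 in edgeR's quasi-likelihood test over all genes, where 20.5% of the 14078 genes were called higher and 36.9% were called in either direction. How much of this rested on 8-week replicate 1 differed between genes: without it, 5 of 7 were still called, against 17.2% of all genes, and Mzb1 and Igj were not. Ms4a1 and Pou2af1 had entered the tables only through their levels in the later groups, so their place in the count is set in part by that filter. In whole tissue, more B cells and more RNA of these genes per cell cannot be told apart.

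The receptor chains came first in the order of the signal. Cd79a stood at 1.99, 0.950, 1.00, 0.788 and 0.474 FPKM in before replicates 1 to 5, at 0.822, 0.836, 0.336 and 1.16 in 24 h replicates 1 to 4, and at 22.2, 2.10, 5.02 and 1.99 in 8-week replicates 1 to 4. The 8-week library numbered 1 was far above the rest, and the lowest 8-week library did not clear the highest before library. The log2 fold change of Cd79a from before to 8 weeks was 3.04 (SE 0.72, adjusted p = 0.0055 in edgeR) and 1.72 (SE 0.54, adjusted p = 0.03) without 8-week replicate 1. Cd79b stood at 2.11, 0.916, 1.11, 0.748 and 0.767 FPKM before TAM, at 2.64, 1.65, 1.68 and 2.00 at 24 h, and at 25.8, 3.58, 5.59 and 2.56 at 8 weeks. Every 8-week library of Cd79b lay above every before library. From before to 8 weeks it changed by 3.18 log2 units (SE 0.63, adjusted p = 0.0019 in edgeR) and 1.95 (SE 0.41, adjusted p = 0.0045) without 8-week replicate 1. The partners kept similar levels in the 8-week libraries, where the ratio of Cd79a to Cd79b in FPKM ran from 0.587 to 0.897.

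Blnk, the adaptor behind the receptor, followed another course. It stood at 2.91, 2.29, 1.44, 1.21 and 1.52 FPKM in the before libraries, at 12.6, 10.9, 12.7 and 13.9 at 24 h, and at 29.7, 25.5, 20.2 and 13.7 at 8 weeks. Both later groups lay wholly above the before group, and the 24 h and 8-week groups overlapped at their edge. The log2 fold change at 8 weeks was 3.70 (SE 0.29, adjusted p = 5e-06 in edgeR) and 3.54 (SE 0.29, adjusted p = 3.3e-05) without 8-week replicate 1. For Blnk, replicate 1 was 1.17 times the next 8-week library, and it held 33.3% of the summed 8-week level.

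Ms4a1, the CD20 antigen, was the lowest of the 7 in several libraries. It stood at 0.277, 0.514, 0.425, 0.194 and 0.0941 FPKM before TAM, at 0.347, 0.501, 0.651 and 0.198 at 24 h, and at 17.2, 0.972, 1.95 and 0.404 at 8 weeks. These before levels rest on 4 to 26 reads per library, and 8-week replicate 4 lay inside the before range. From before to 8 weeks Ms4a1 changed by 4.20 log2 units (SE 0.95, adjusted p = 0.0042 in edgeR) and 2.05 (SE 0.60, adjusted p = 0.023) without 8-week replicate 1.

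Pou2af1, the octamer coactivator, stood at 1.03, 0.491, 0.409, 0.291 and 0.132 FPKM before TAM, at 0.660, 0.386, 0.137 and 0.388 at 24 h, and at 18.8, 1.51, 2.26 and 1.01 at 8 weeks. 3 of the 8-week libraries cleared the before range and replicate 4 fell just inside it. From before to 8 weeks Pou2af1 changed by 3.76 log2 units (SE 0.88, adjusted p = 0.0052 in edgeR) and 1.92 (SE 0.61, adjusted p = 0.033) without 8-week replicate 1. Its partner Pou2f1 had a log2 difference of −0.15 (adjusted p = 0.63), and Pou2f2, listed outside the shared set, one of 1.68 (adjusted p = 0.26, edgeR on the before and 8-week libraries).

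The genes of antibody release, Mzb1 and Igj, lost their calls without 8-week replicate 1. Mzb1 stood at 2.74, 1.44, 1.31, 0.879 and 0.374 FPKM before TAM, at 1.99, 0.919, 0.211 and 0.998 at 24 h, and at 38.6, 2.07, 4.68 and 1.32 at 8 weeks. Replicate 1 was far above all others, and 8-week replicates 2 and 4 lay inside the before range. From before to 8 weeks Mzb1 changed by 3.23 log2 units (SE 0.96, adjusted p = 0.018 in edgeR), and without 8-week replicate 1 it was 1.18 (SE 0.70, adjusted p = 0.23) and no longer called. Igj stood at 45.6, 9.71, 8.73, 0.190 and 0.598 FPKM before TAM, at 22.1, 2.88, 14.3 and 0.882 at 24 h, and at 889.5, 117.8, 171.5 and 62.7 at 8 weeks. All 4 of the 8-week libraries lay above the whole before range, which was itself wide, from 8 to 2352 reads. The log2 fold change of Igj was 4.71 (SE 1.39, adjusted p = 0.018 in edgeR), and without 8-week replicate 1 it was 3.35 (SE 1.29, adjusted p = 0.069). Leaving out before replicate 1, the highest before library, gave 6.13 for Igj (SE 1.47, adjusted p = 0.0077 in edgeR). limma voom with quality weights moved Igj up to 7.04 (adjusted p = 0.00035), and it moved Ms4a1 down to 3.05 (adjusted p = 0.007) and Mzb1 down to 2.33 (adjusted p = 0.023). With before replicate 1 and 8-week replicate 1 both left out, a setting added after the data were seen, Igj was called at 4.76 (adjusted p = 0.02) and Mzb1 was not, at 1.60 (adjusted p = 0.12).

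**Figure D2:**
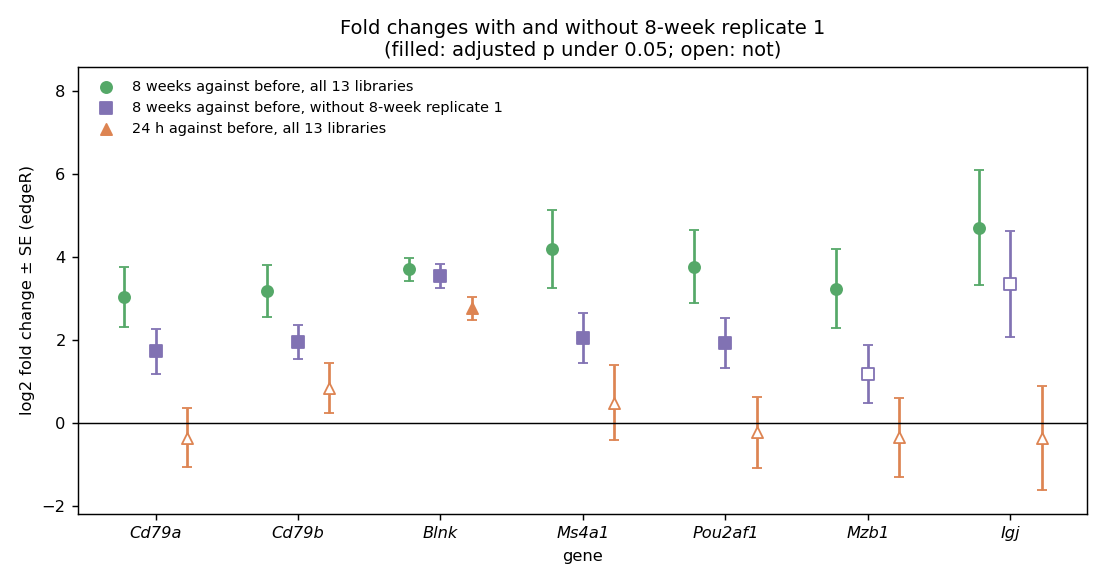
Log2 fold changes of the 7 genes (vertical axis, bars of 1 standard error) for 8 weeks against before with all 13 libraries and without 8-week replicate 1, and for 24 h against before; filled symbols have an adjusted p under 0.05 and the horizontal line marks 0. At 8 weeks against before, leaving out replicate 1 moves Blnk from 3.70 to 3.54 and Ms4a1 from 4.20 to 2.05.

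8-week groups that did not overlap the before group were found for Cd79b, Blnk and Igj, which is 3 of 7 genes, against 18.1% of all genes that were higher in this sense. For Cd79a, Ms4a1 and Pou2af1, 3 of the 4 libraries at 8 weeks lay above all before libraries, and for Mzb1 2 did. Two-sided exact permutation tests on log2(FPKM + 0.1) gave p = 0.016 for Cd79b, Blnk and Igj, the smallest value that 5 libraries against 4 allow. The same exact tests gave p = 0.032 for Cd79a and Pou2af1, 0.048 for Ms4a1 and 0.095 for Mzb1. After adjustment over the 21 tests of this family none passed 0.05, and the smallest adjusted exact p was 0.074. In the authors' deposited table of 8 weeks against before, q was under 0.05 for 3 of the 7 genes: Blnk (log2 ratio 3.59, q = 0.00064), Cd79b (2.53, q = 0.031) and Igj (5.76, q = 0.041). The authors' deposited table gave q = 0.059 for Cd79a, 0.056 for Pou2af1, 0.083 for Ms4a1 and 0.17 for Mzb1. The share of all transcripts with the authors' q under 0.05 was not computed here, so the 3 of 7 has no background beside it.

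8-week replicate 1 was the highest 8-week library for 7 of 7 genes, and replicate 4 was the lowest for 7 of 7. Replicate 1 exceeded the next 8-week library by 4.42 times for Cd79a, 4.62 for Cd79b, 5.19 for Igj, 8.24 for Mzb1, 8.32 for Pou2af1 and 8.82 for Ms4a1. It held between 68.8% (Cd79b) and 83.8% (Ms4a1) of the summed 8-week level of these 6 genes. The other 3 libraries alone averaged 10.6 times the before mean for Blnk and 9.05 times for Igj. For the remaining genes they averaged between 1.99 times (Mzb1) and 3.69 times (Ms4a1).

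Of 13217 genes listed for all 3 groups and with at least 1 FPKM in an 8-week library, 41 (0.31%) were at least 3-fold higher in replicate 1 than in the next 8-week library, and 6 of them are among the 7 genes here. The same measure gave 176 genes (1.33%) for 8-week replicate 3, 6 for replicate 4 and 2 for replicate 2. Another 5 of those in replicate 1 were on the lists of B cell and plasma cell genes, among them Derl3, Fcrl1, Bank1 and Spib. The rest held genes of exocrine glands and of neutrophils, named after their values were seen. Cpb1, a pancreatic protease, stood at 960.3 FPKM in replicate 1 and at most 3.48 in the other 8-week libraries. Cela1, an elastase, stood at 1097 against 21.3, and the kallikrein Klk1 at 134.4 against 5.49. Cela1 was also present in the earlier groups, from 37.2 to 73.9 FPKM before TAM and from 2.19 to 39.1 at 24 h. The neutrophil genes S100a8 and S100a9 stood at 987.5 against 17.7 and at 826.6 against 6.26. Their part in the levels of the B cell and plasma cell genes in this library, and whether tissue beside the adrenal gland entered it, were not tested. In the list of kidney and exocrine gland genes, of which 4 were measured, 8-week replicate 3 had a mean log2 CPM of 2.73 relative to the before mean. Replicate 1 had 4.02. The listed gene Pigr stood at 149.5 FPKM in replicate 3 and at most 1.51 in the other 8-week libraries. Replicate 3 did not share the high Cela1 and Cpb1 of replicate 1.

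**Figure D3:**
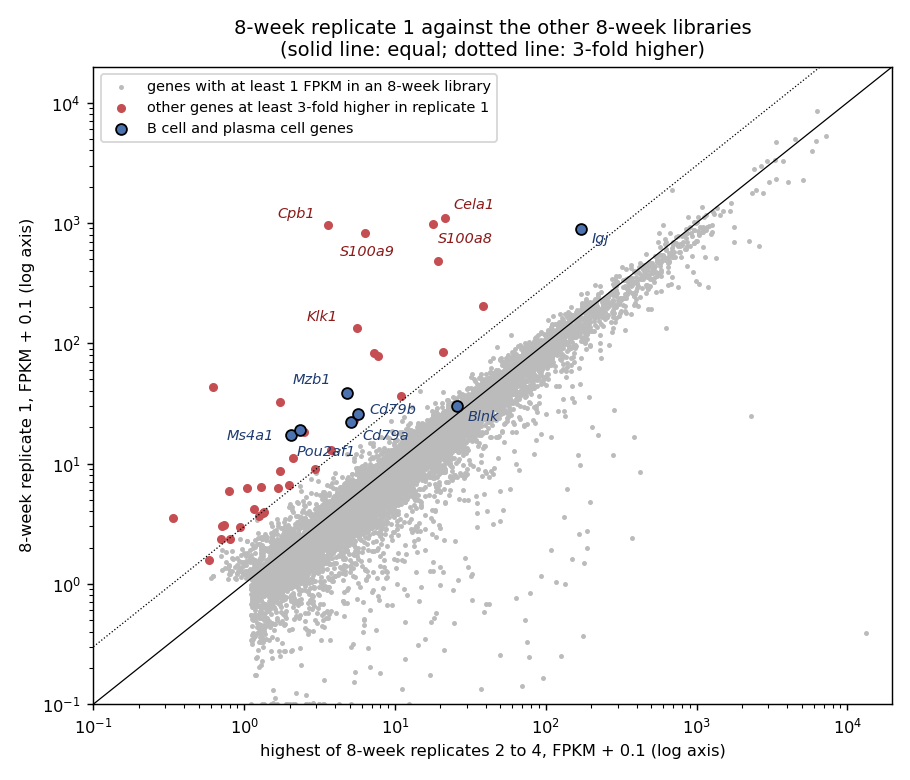
Level in 8-week replicate 1 (vertical, FPKM + 0.1, log axis) against the highest of the other 8-week libraries (horizontal, same scale); each point is 1 gene. 6 of the 7 genes lie above the dotted line of 3-fold excess, with Cpb1, Cela1, S100a8, S100a9 and Klk1 farther above it, and Blnk lies close to the line of equality.

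Before TAM too the genes moved together between libraries. Before replicate 1 was the highest before library for 6 of 7 genes, with Ms4a1 highest in before replicate 2. The lowest before library was replicate 4 for Cd79b, Blnk and Igj, and replicate 5 for the other 4 genes. Summed over the 7 genes, the level ran from 3.96 to 56.6 FPKM before TAM and from 18.1 to 41.1 at 24 h. At 8 weeks the sums were 1042, 153.6, 211.2 and 83.6 FPKM for replicates 1 to 4, and Igj made up 75.0% to 85.4% of them. Before TAM, Igj was the highest of the 7 genes in replicates 1 to 3 and Blnk in replicates 4 and 5.

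At 24 h after TAM only Blnk was called of the 7 genes, where 12.6% of all genes were called higher. The Blnk log2 fold change was 2.77 (SE 0.28, adjusted p = 0.00011 in edgeR), and each 24 h library of Blnk lay above each before library, as was the case for 9.75% of all genes. Cd79b had a log2 difference of 0.84 (SE 0.61, adjusted p = 0.38 in edgeR) and Ms4a1 one of 0.48 (adjusted p = 0.76). Cd79a had −0.36 (adjusted p = 0.77), Mzb1 −0.36 (adjusted p = 0.83), Igj −0.38 (adjusted p = 0.87) and Pou2af1 −0.23 (adjusted p = 0.88), and all of these groups overlapped. Without before replicate 1 and 8-week replicate 1, Cd79b was called as well, at 1.18 (adjusted p = 0.045), where 1450 of 14078 genes were called higher. The signs for Cd79a, Mzb1, Igj and Pou2af1 turned in some settings, so no direction is given for them at 24 h.

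Between 24 h and 8 weeks, all 7 genes were called higher in the fit of all libraries, where 10.1% of all genes were. The log2 fold changes were 5.09 for Igj (adjusted p = 0.036 in edgeR), 4.00 for Pou2af1 (0.016), 3.71 for Ms4a1 (0.024), 3.59 for Mzb1 (0.033), 3.40 for Cd79a (0.014), 2.34 for Cd79b (0.027) and 0.94 for Blnk (0.034). These calls depended on the libraries in the fit, and the fewest remained without 8-week replicate 1. Without it only Cd79a was called, at 2.09 (adjusted p = 0.04), against 6.77% of all genes, and Blnk had 0.77 (adjusted p = 0.099). Blnk also lost its call without 24 h replicate 1, 2 or 3 or 8-week replicate 2 or 3. Igj also lost its call without 24 h replicate 2 or 4 or 8-week replicate 2 or 3. With 24 h replicate 2 left out, 3 of 7 were called, against 964 of 14078 genes called higher. With 24 h replicate 4 left out it was 3 of 7 as well, against 1082 of 14078. Groups did not overlap for Cd79a, Igj and Pou2af1 (exact permutation p = 0.029, the smallest that 4 against 4 allow), against 9.92% of all genes. This comparison and that of 8 weeks with before share the 8-week libraries.

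Genes listed for the same cells were read next, some of them also found in other white blood cells. Each list is described by its count of called genes in edgeR and its median. The median over all genes at 8 weeks against before was 0.03. Of all genes, 20.5% were called higher at 8 weeks against before, 17.2% without 8-week replicate 1, and 12.6% at 24 h. Of B cell surface and receptor genes, 10 of 12 measured were called higher at 8 weeks and 0 lower, with a median log2 fold change of 2.49. The 4 with the lowest p were Cd53 (3.66), a tetraspanin of white blood cells, Cd22 (4.05), an inhibitory lectin, Ly86 (2.66), the partner of the receptor-like Cd180, and Cd37 (2.99), another tetraspanin. At 24 h, 8 of these 12 were called higher, among them Cd53 (2.61), Cd22 (3.10), Ly86 (2.22) and Cd37 (1.54). Cd79a, Ms4a1 and Pou2af1 were not called then, while macrophage genes were called higher in 10 of 12 cases. The part of macrophages and other white blood cells in these surface genes was not tested. Cxcr5, the receptor that guides B cells into follicles, was listed for before and 8 weeks, with 3.09 (adjusted p = 0.006, edgeR on those libraries), and it stood at 2.75 FPKM in 8-week replicate 1 and at most 0.453 in the other 8-week libraries. Cxcr5 reached 16 reads in 0 of the before libraries, so it was listed through its 8-week level.

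Of the receptor's signal genes, 11 of 15 were called higher at 8 weeks and 0 lower (median 1.34), and 11 were called higher at 24 h. The 4 with the lowest p were the phosphatase Ptpn6 (2.32), the kinases Btk (2.55) and Syk (2.84), and the protein kinase C gene Prkcb (1.83). Ptpn6 at 24 h had 1.86 (adjusted p = 0.00023 in edgeR), Btk 2.06 (adjusted p = 0.00028) and Syk 2.54 (adjusted p = 0.00037). These signal genes, like Blnk, are also used by macrophages, whose listed genes were called higher in 12 of 12 cases at 8 weeks and in 10 of 12 at 24 h. The summed macrophage level ran from 412.7 to 1115 FPKM before TAM, from 2383 to 4193 at 24 h and from 5234 to 10130 at 8 weeks. The part of macrophages in the Blnk level was not tested.

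Of the transcription factor genes, 7 of 11 were called higher at 8 weeks (median 0.83) and 4 at 24 h. Spi1 (2.70) and Ikzf1 (2.55) act in many white blood cells, and Spib (2.55) and Ikzf3 (1.77) mainly in lymphoid ones. Spib had 0.65 at 24 h (adjusted p = 0.53 in edgeR) and Ikzf3 0.42 (adjusted p = 0.56). Spib ranged from 0.139 to 0.452 FPKM before TAM and from 0.559 to 3.84 at 8 weeks, with the top value in replicate 1.

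Of the plasma cell list, 5 of 13 genes were called higher at 8 weeks and 1 lower (median 0.49), and 6 were called higher at 24 h. Slamf7 (3.82) is a surface receptor, Sdc1 (2.66) the proteoglycan CD138, Irf4 (4.01) a transcription factor and Sec11c (1.28) a subunit of the signal peptidase. Sdc1 and Slamf7 were called at 24 h too, at 2.29 and 2.52 (adjusted p = 0.00043 and 0.00069 in edgeR). Igj and Mzb1 were not called at 24 h. Irf4 and Sdc1 were lower in 8-week replicate 1 (7.98 and 24.1 FPKM) than in the other 8-week libraries, the reverse of Igj and Mzb1. Slamf7 stood at 14.1 FPKM in that library, inside the 8-week range of 10.9 to 16.8. Sec11c was highest there, at 94.3 FPKM. The factors of the plasma cell program Prdm1 and Xbp1 had log2 differences of 0.45 (adjusted p = 0.21) and 0.26 (adjusted p = 0.36) at 8 weeks, and at 24 h Prdm1 rose by 0.92 (adjusted p = 0.033 in edgeR). Derl3, which helps clear misfolded proteins, rose by 2.83 at 24 h (adjusted p = 0.013 in edgeR), and had 1.55 at 8 weeks (adjusted p = 0.093) and 0.26 without 8-week replicate 1.

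Of the signals that keep or attract B cells, 7 of 8 genes were called higher at 8 weeks (median 2.45) and 2 at 24 h. Cxcl12, a chemokine that holds plasma cells in bone marrow, ranged from 29.8 to 57.0 FPKM before TAM, from 27.3 to 62.3 at 24 h and from 140.4 to 275.8 at 8 weeks. Every 8-week library of Cxcl12 lay above every other library, and it rose by 2.52 log2 units from before to 8 weeks (SE 0.25, adjusted p = 1.6e-05 in edgeR). Tnfsf13 (APRIL) and Tnfsf13b (BAFF), survival factors of plasma cells and B cells, had 2.43 (adjusted p = 9.5e-05) and 2.58 (adjusted p = 0.00013). Tnfsf8, the ligand of CD30, had 2.48 (adjusted p = 0.0027 in edgeR). Without 8-week replicate 1 the log2 fold changes of Cxcl12, Tnfsf13 and Tnfsf13b were 2.51, 2.24 and 2.53. Without that library the counts called higher at 8 weeks were 10 for surface and receptor genes, 10 for signal genes, 5 for transcription factors, 4 for plasma cell genes and 6 for these signals. The chemokine Cxcl13 draws B cells through Cxcr5 and was chosen for mention after its values were seen. Cxcl13 ranged from 0.0416 to 3.78 FPKM before TAM and from 0.357 to 55.7 at 8 weeks. Its top 8-week value was that of replicate 1, and the next highest was 25.5 FPKM. Its lowest 8-week value lay inside the before range. Like Cxcr5, Cxcl13 was listed through its 8-week level.

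**Figure D4:**
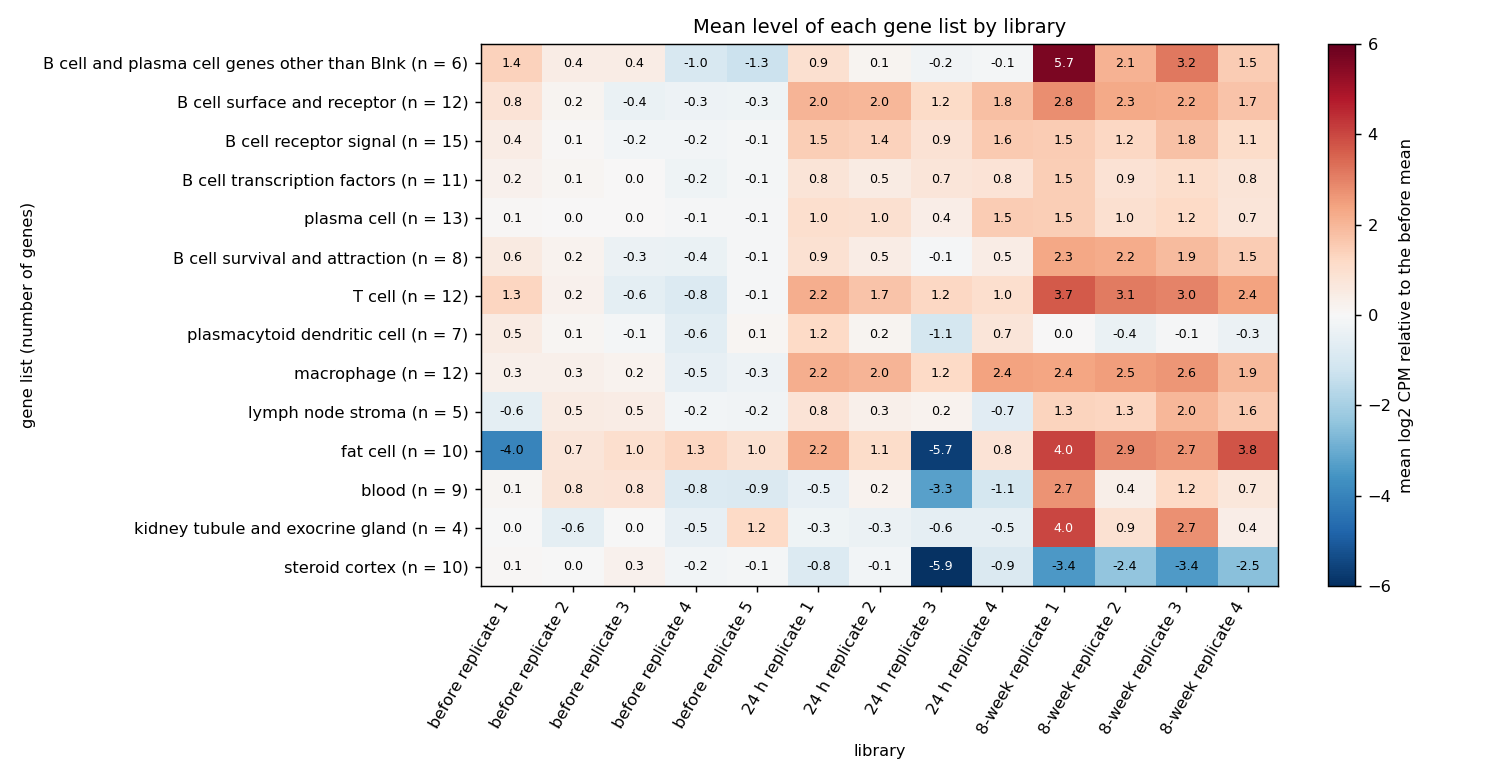
Mean log2 CPM (counts per library total) of each gene list in each library, relative to the mean of the before libraries; rows are lists, columns are the 13 libraries, and cells hold the value. The row of the B cell and plasma cell genes other than Blnk reaches 5.66 in 8-week replicate 1 and lies between 1.51 and 3.17 in the other 8-week libraries; the T cell row lies between 2.42 and 3.66.

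Markers of other cell types were read beside these genes. T cell genes were called higher in 11 of 12 cases at 8 weeks (median 3.10) and in 4 of 12 at 24 h (7 without before replicate 1), and their summed level was 97.0, 80.4, 68.7 and 48.3 FPKM in 8-week replicates 1 to 4. The order of the 8-week libraries in that sum was thus replicate 1 first and replicate 4 last, as for the 7 genes. This was not particular to T cells. The sum of surface and receptor genes was also highest in replicate 1 (1161 FPKM) and lowest in replicate 4 (579.7). The macrophage sum was lowest in replicate 4 too (5234) but highest in replicate 2 (10130), and the receptor signal sum was lowest in replicate 1 (328.5). Of the plasmacytoid dendritic cell list 0 of 7 were called higher and 1 lower at 8 weeks. Of lymph node stroma genes, 3 of 5 were called higher. Of fat cell genes 5 of 10, of blood genes 3 of 9 and of kidney and exocrine gland genes 1 of 4 were called higher. Without 8-week replicate 1 these counts were 2, 1 and 0. Over all genes 20.5% were called higher, and 17.2% without that library. Lists of this size cannot set the blood and the kidney and exocrine gland counts apart from those shares. Without 24 h replicate 3 the counts were 9 for fat cells and 2 for kidney and exocrine glands, where 3416 of 14078 genes were called higher. Of steroid cortex genes, 7 of 10 were called lower, with a median of −3.06.

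The genes whose levels followed the 7 most closely were ranked among 14036 genes by Pearson's r with their mean standardised log2 level over 13 libraries, as a description. Among the 6 highest were Ptprcap (0.956), a partner of the phosphatase CD45, Tbc1d10c (0.943), the lymphotoxin gene Ltb (0.939), Spib (0.936) and the ribonuclease gene Rnase6 (0.935). Among the 7 themselves, r ran from 0.742 for Blnk to 0.980 for Cd79b, each being part of the mean. The libraries share the group differences, so r was also taken over deviations from the group means. By that measure the 6 highest included A530032D15Rik (0.927), Pik3cg (0.917), Rnase6 (0.904), Ptprcap (0.892) and Il16 (0.883). Pik3cg is a lipid kinase of white blood cells and Il16 a cytokine that binds CD4. Ptprcap stood at 0.343 to 1.01 FPKM before TAM, and at 5.24, 2.07, 3.34 and 1.66 in 8-week replicates 1 to 4, the highest value again in replicate 1.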

How the data were processed

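The 13 adrenal libraries were prepared with a TruSeq kit that keeps the strand of mRNA, per the labels. The submitters' processing notes name TopHat2 2.0.14, bcl2fastq 2.17 and the mm10 build (GRCm38). The counting tool was not given in those sources. The deposited tables give an expected count and FPKM for each RefSeq transcript, per the file headers. Of the expected counts 43.3% to 46.4% per library were whole, to within 1e-06. A deposited table of the authors gives the log2 ratio of 8 weeks to before with its p-value and q-value. By the values, listed transcripts had at least 16 reads in 4 or more before libraries or in 3 or more of a later group.

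Expected counts of the 18738 transcripts listed in all tables were summed per gene and rounded. edgeR 4.0.16 (R 4.3.3) fitted all 13 libraries at once with TMM scaling, filterByExpr and no block. Its quasi-likelihood test was adjusted by Benjamini-Hochberg over 14078 genes, with a threshold of 0.05. Every adjusted p in the text is from it unless named otherwise. Standard errors are the log2 fold change over the root of F. Genes listed for before and 8 weeks only were fitted on those libraries. Two-sided exact permutation tests used log2(FPKM + 0.1), whose differences understate changes of low genes. The test was tried on simulated counts first.

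The genes, lists and motifs were chosen with earlier results of these data known. Named list genes are up to 4 per list with the lowest p at 8 weeks, and genes most alike are the 6 highest by each measure, of which 1 gene is not reported here. Genes named outside this were chosen after their values were seen: Cxcr5, Cxcl13, Derl3, Prdm1, Xbp1, Pou2f1, Pou2f2 and those high in 8-week replicate 1. Fcrla, Siglecg, Blk, Tnfrsf17 and Ccl21a, listed for before and 8 weeks but not for 24 h, were also named outside this rule. Of 12 pairs of same-numbered libraries, 2 had a correlation over 0.1. Libraries with different numbers were not compared, so this does not settle whether the numbers pair them. No libraries held identical values. Alternatives were DESeq2 1.42.0, limma 3.58.1 voom with quality weights, no scaling, no filter, only the groups compared, robust estimation, a replicate block and each library left out.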

Additional observations from a re-analysis of the deposited data

Results flagged for a closer look

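Of 21 groups of values examined (7 genes in 3 groups), 8 held a library whose gap to its neighbour was large for the group's range by Dixon's test. The rate of about 1 flag in 20 groups holds for normal values, which FPKM need not be. The genes were also chosen with earlier results of these data known, so the flags are a description only. 8-week replicate 1 was such a library for 6 of the 7 genes, with 22.2 FPKM for Cd79a, 25.8 for Cd79b, 17.2 for Ms4a1, 18.8 for Pou2af1, 38.6 for Mzb1 and 889.5 for Igj, and Blnk was the exception at 8 weeks. Before replicate 1 was such a library for Cd79b, at 2.11 FPKM, and for Igj, at 45.6 FPKM. These genes share their library, so the flags are not independent of each other.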

How the results depend on the processing

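At 8 weeks against before, 7 of 7 genes were called under DESeq2, voom, robust estimation, no scaling, no filter (which removed no gene) and fits of only the groups compared, and 5 to 7 with 1 library left out. No scaling moved the median over all genes from 0.03 to −0.097. With the replicate number as a block, 5 were called at 8 weeks, with Ms4a1 at 2.90 (adjusted p = 0.053) and Mzb1 at 2.08 (adjusted p = 0.079) lost, and 4 of 7 against 24 h. All genes called under the block were 3848 of 14078 at 8 weeks against before (5193 without it), of which 2183 were higher. They were 1312 at 24 h (2708 without it) and 1661 at 8 weeks against 24 h (2923 without it). Same-numbered libraries had correlations from −0.13 to 0.28, which does not settle whether the numbers pair them. For 8 weeks against before, 5193 genes were called, 5768 of 13842 under DESeq2, 5187 with robust estimation and 5478 with no scaling. The count was 7444 with only the groups compared, 7895 with all transcripts of the 2 groups and 8101 with voom. With 1 library left out it ran from 4153 to 6706. At 24 h voom called 5378. Without before replicate 1 and 8-week replicate 1 (added after seeing the data) 2 of the 7 genes were called at 24 h in place of 1. In that setting 2149 of all genes were called at 24 h. At 8 weeks against 24 h, the 7 calls became 1 with only those groups, 3 with voom, 2 in that added setting, 0 without 8-week replicate 1 in a fit of only those groups, and 1 to 7 with 1 library left out. The counts over all genes there were 973 with only those groups, 4201 with voom and 1439 in the added setting. They were 2 without 8-week replicate 1 in a fit of only those groups, and 1782 to 4300 with 1 library left out. The 24 h signs turned, with no call, under voom for Cd79a (0.19), Pou2af1 (0.89), Mzb1 (0.76) and Igj (2.74), and in the added setting for Cd79a (0.01), Pou2af1 (0.27), Mzb1 (0.07) and Igj (1.03). With 1 library left out those differences ran from −0.64 to 0.00 for Cd79a, −0.60 to 0.27 for Pou2af1, −0.89 to 0.07 for Mzb1 and −1.16 to 1.03 for Igj. The cause was not tested. Exact permutation tests called 0 of 7 genes after adjustment in every setting run. In comparisons that lose a library the smallest p they allow is larger, so the missing adjusted calls there say little. Without 8-week replicate 1, the unadjusted exact p at 8 weeks against before was 0.036 for Cd79b, Blnk and Igj. That is the smallest that 3 libraries against 5 allow. The unadjusted exact p there was 0.071 for Cd79a and Pou2af1, 0.11 for Ms4a1 and 0.21 for Mzb1, so these 4 did not reach 0.05. Ms4a1, Mzb1, Pou2af1, Cd79a and Cd79b rest on few reads before TAM (4 to 26, 7 to 61, 7 to 65, 13 to 65 and 18 to 62), which limits their fold changes.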

Other observations

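Some genes of B cells, of plasma cells and of lymphoid tissue were listed for the before and 8-week libraries but not for 24 h, and were fitted with edgeR on those libraries. They reached 16 reads in at most 3 of the before libraries, so they were listed through their 8-week levels, and their rises are set in part by that filter. Fcrla, an Fc receptor-like protein inside B cells, had a log2 fold change of 3.39 (adjusted p = 0.021), Siglecg, an inhibitory lectin, 2.27 (adjusted p = 0.0058) and Blk, a kinase of the antigen receptor, 3.03 (adjusted p = 0.015). Tnfrsf17, the APRIL receptor BCMA of plasma cells, had 2.99 (adjusted p = 0.019), with levels from 0 to 0.552 FPKM before TAM and from 0.192 to 4.00 at 8 weeks. 8-week replicate 1 was far above the next 8-week library for Fcrla (6.76 against 1.15 FPKM), Blk (3.26 against 0.940), Tnfrsf17 (4.00 against 1.03) and Siglecg (2.77 against 0.704), so these rises rest largely on it. The lymphoid chemokine Ccl21a had 3.60 (adjusted p = 0.0043), ranged from 0.448 to 15.98 FPKM before TAM and from 30.6 to 75.3 at 8 weeks, and was not highest in replicate 1 (66.5). Ccl21a has near-identical copies in the genome, so its counts are uncertain. Immunoglobulin heavy and light chain genes were not analysed here.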
